A study of Mus musculus with 14 samples.

Results

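Promoter contacts of the mandibular (Md) component of the first pharyngeal arch were compared with those of the second pharyngeal arch (PA2) in the mouse at E10.5 (E, embryonic day). The comparison used 4 of the 14 promoter capture Hi-C (PCHi-C) libraries of the series, the 2 wild-type Md and the 2 wild-type PA2 libraries, and the loci described are those of captured promoters other than that of *Hoxa2*. Each library came from cranial neural crest cells (CNCCs) of E10.5 *Wnt1::Cre*;*ROSA-RFP* embryos of mixed C57Bl/6J;CD1 background, a cross that labels the *Wnt1* lineage, and with it the neural crest, with red fluorescent protein through Cre recombination. The arches were micro-dissected and the fluorescent cells were sorted. The other 10 libraries were 2 replicates each of E10.5 frontonasal process (FNP) and maxillary (Mx) CNCCs, of PA2 cells of E10.5 *Hoxa2* EGFP/EGFP knockout embryos sorted for green fluorescence, and of wild-type pinna, a derivative of PA2, at E12.5 and E14.5. They served as a reference that the choice of contacts did not use. No expression was measured here, so the labelled cell type could be checked only through contacts. The *Hoxa2* promoter was listed with 0 fragments of HIRE1, a distal enhancer region named by the study, in both Md libraries. The PA2 libraries listed it with 25 and 30. With HIRE2, another such region, it was listed with 0 fragments in both Md libraries and PA2 replicate 1, and with 3 in PA2 replicate 2.

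Md and PA2 CNCCs differ in *Hox* state, since the CNCCs of the first arch are *Hox*-negative and those of the second arch express *Hox* genes such as *Hoxa2*. Within both arches, endothelin signalling and *Dlx* genes set the dorsoventral pattern, and *Hand2* acts at the ventral end. Promoters of such developmental genes are often surrounded by enhancers that act over long distances, and PCHi-C records which distal HindIII restriction fragments lie close to a promoter fragment, the bait. Each listed pair of a bait and another fragment carries a CHiCAGO score, which rises as the weighted p-value of the pair, set against the background at that distance, falls (negative natural logarithm). Only scores of at least 5 are listed, so a pair missing from a list was set to 0 and may have any score below 5.

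Within chromosomes, Md replicates 1 and 2 listed 173477 and 176770 pairs, and PA2 replicates 1 and 2 listed 140559 and 145035. Md replicate 1 stood apart from the others. In that library 46.5% of all listed pairs joined different chromosomes, against 3.60% in Md replicate 2 and 3.04% and 3.35% in the PA2 replicates. Pairs more than 2 Mb apart made up 27.7% and 19.6% of the same-chromosome pairs in Md and 9.02% and 11.2% in PA2. The part of the pairs between chromosomes in the differences below was not tested. Md replicates had 68512 pairs in common, 39.5% and 38.8% of their lists, and PA2 replicates had 66194, 47.1% and 45.6%. Md replicate 2 shared more pairs with PA2 replicates 1 and 2, 71192 and 73305, than with Md replicate 1. Outside the comparison, the 2 knockout libraries listed the fewest same-chromosome pairs of the series, 113670 and 120854. Lower counts and summed scores in the knockout below come from these shorter lists.

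Of the 390260 pairs listed in any of the 4 libraries, 260514 were in 1 library only and 41282 in all 4. A pair was called Md-only when both Md libraries and neither PA2 library listed it, and PA2-only in the converse case. There were 10410 Md-only pairs, 8.02% of the 129746 pairs listed in at least 2 libraries, and 8461 PA2-only pairs, or 6.52%. Without the *Hoxa2* bait they numbered 10396 and 8432. Within 2 Mb they numbered 9297 and 8132. The Md lists were the longer ones, and with equal numbers of pairs per library the order reversed, to 6705 Md-only and 11228 PA2-only pairs. For comparison, 36322 pairs were listed in 1 Md and 1 PA2 library only, so pairs confined to 1 population made up 34.2% of the pairs seen in exactly 2 libraries. Of the 6 ways to pick 2 of the 4 libraries, 2 stay within 1 population, so this share alone does not set the populations apart. Most of these pairs lay just above the listing threshold. The median of the mean score was 6.39 for Md-only and 6.10 for PA2-only pairs, against 8.54 for pairs in all 4 libraries. Mean scores under 7 were found in 67.2% of Md-only and 79.4% of PA2-only pairs, and pairs just outside the threshold are not in the lists. The median distance was 441 kb for Md-only, 295 kb for PA2-only and 230 kb for shared pairs. The Md-only pairs came from 5850 baits, of which 61.2% had exactly 1, and the PA2-only pairs from 5375 baits, of which 66.2% had exactly 1. Runs of at least 4 such fragments of a single bait, each within 25 kb of the next, occurred 76 times in Md and 47 times in PA2, and the loci described next include several of the longest.

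The *HoxB* cluster held the densest Md-only contacts of a *Hox* promoter. *Hoxb2*, the paralogue of *Hoxa2*, had its bait at chr11:96348585-96354229 (all coordinates are of GRCm38/mm10). It was listed in 30 and 19 pairs in Md against 6 and 9 in PA2, and 13 of its pairs were Md-only and 1 PA2-only. FNP listed 30 and 38 and Mx 24 and 27, whereas the *Hoxa2* knockout listed 2 and 0, E12.5 pinna 8 and 5, and E14.5 pinna 5 and 5. The 3 *Hox*-negative populations were thus all above every PA2 or pinna library. A block of 7 Md-only fragments lay 142.7 kb from the bait at chr11:96168916-96205883, a region with exons of *Hoxb13*, the most 5′ gene of the cluster, and of *Gm11535*. The scores of *Hoxb2* with this region summed to 89.8 and 79.2 in Md and to 0 and 5.0 in PA2. The sums were 86.6 and 97.8 in FNP and 80.1 and 82.9 in Mx. They were 0 in both knockout libraries, 5.1 and 0 in E12.5 pinna, and 0 in both E14.5 libraries, where the region was at or near 0 with every *HoxB* bait.

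**Figure D1:**
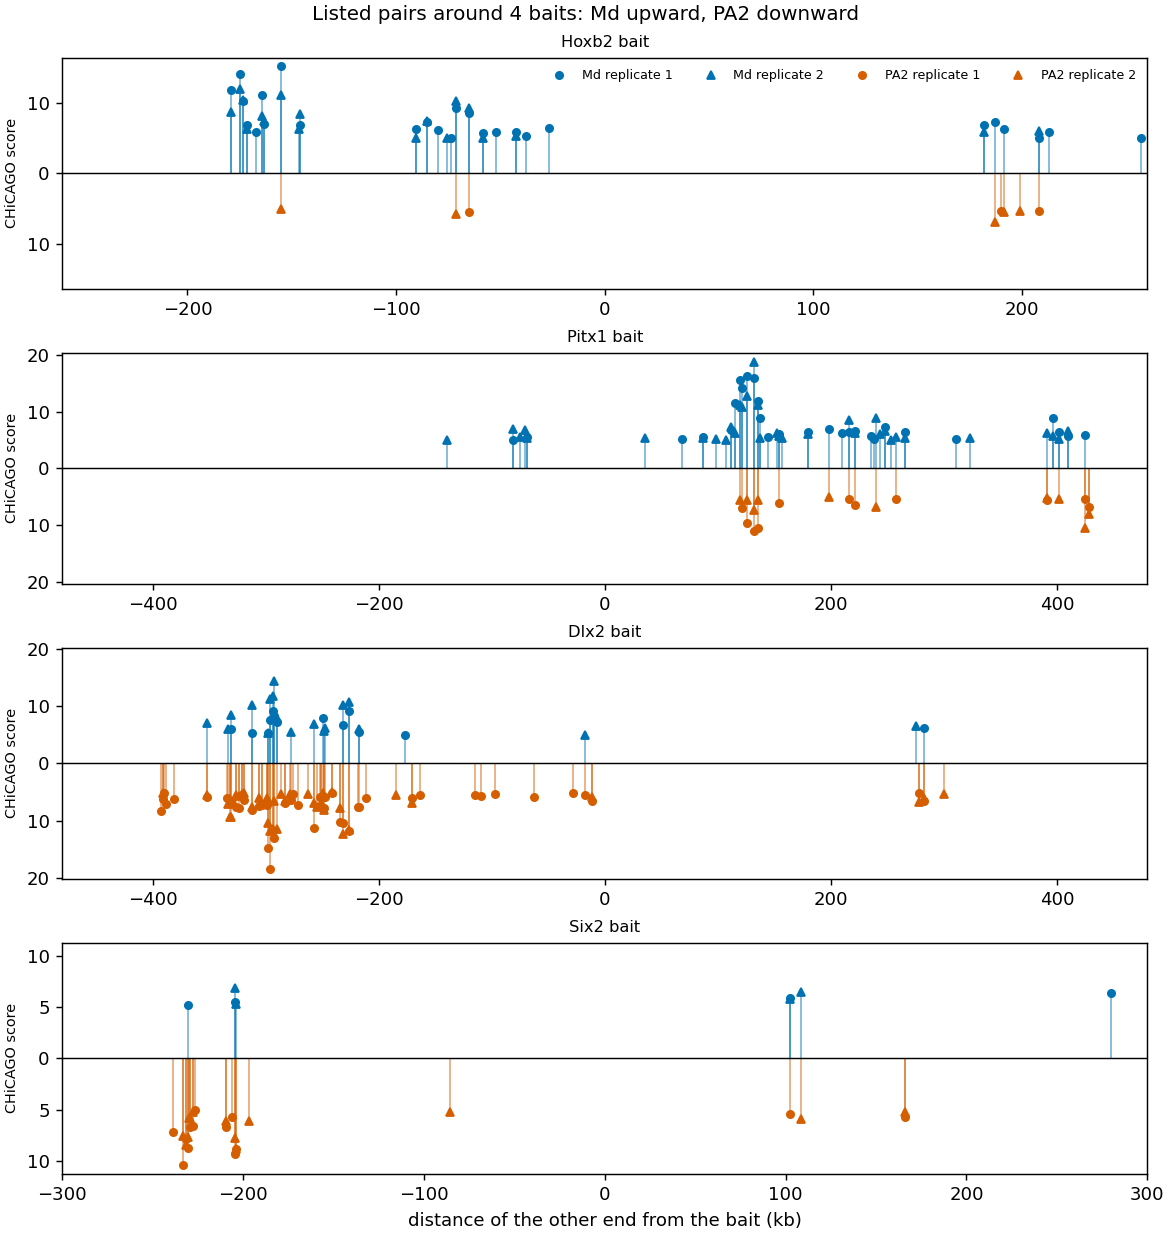
CHiCAGO scores of listed pairs against the distance of the other fragment from the bait in kb for the *Hoxb2*, *Pitx1*, *Dlx2* and *Six2* baits, with Md replicates drawn upward in blue and PA2 replicates downward in orange. *Hoxb2* and *Pitx1* have more and higher points in Md, *Dlx2* has more in PA2, and the block on the lower side of *Six2* is mostly PA2.

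Other *HoxB* promoters met the same region in a different order. *Hoxb3* has a start site next to *Hoxb2*, with the bait at chr11:96341262-96346956. The scores of this bait with the region summed to 95.1 and 75.0 in Md and 11.1 and 15.5 in PA2. A second *Hoxb3* start site, at chr11:96321828-96327276, had sums of 60.7 and 48.5 in Md against 88.8 and 91.9 in PA2. For *Hoxb6*, with its bait at chr11:96290756-96295371, they were 15.8 and 5.6 in Md and 50.2 and 50.9 in PA2. The baits at and next to *Hoxb2* were thus higher in Md, and the second *Hoxb3* bait and *Hoxb6* higher in PA2, without overlap. *Hoxb5os*, *Mir196a-1* and *Hoxb9* were higher in PA2 as well, with sums of 12.2 and 29.9, 38.5 and 26.1, and 5.6 and 6.4 in Md against 44.0 and 63.8, 82.6 and 52.8, and 12.8 and 18.8 in PA2. In the other libraries these contacts did not follow the *Hox* state throughout, since the second *Hoxb3* bait gave 80.7 and 65.0 in FNP and the bait next to *Hoxb2* gave 52.4 and 29.0 in E12.5 pinna. *Hoxb8* and the microRNA gene *Mir10a*, also within the cluster, overlapped, with 34.2 and 52.5 in Md and 41.2 and 48.2 in PA2 for *Mir10a*. *Hoxb1*, at the 3′ extreme, overlapped between the populations, with 22.9 and 29.8 in Md and 25 and 16.8 in PA2. Over all their pairs, the *Hoxb3* bait next to *Hoxb2* was listed 22 and 20 times in Md and 7 and 8 times in PA2, whereas the second was listed 15 and 10 times in Md and 24 and 31 times in PA2. The second *Hoxb3* bait had 0 Md-only and 10 PA2-only pairs, and *Hoxb6* had 0 and 6.

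**Figure D2:**
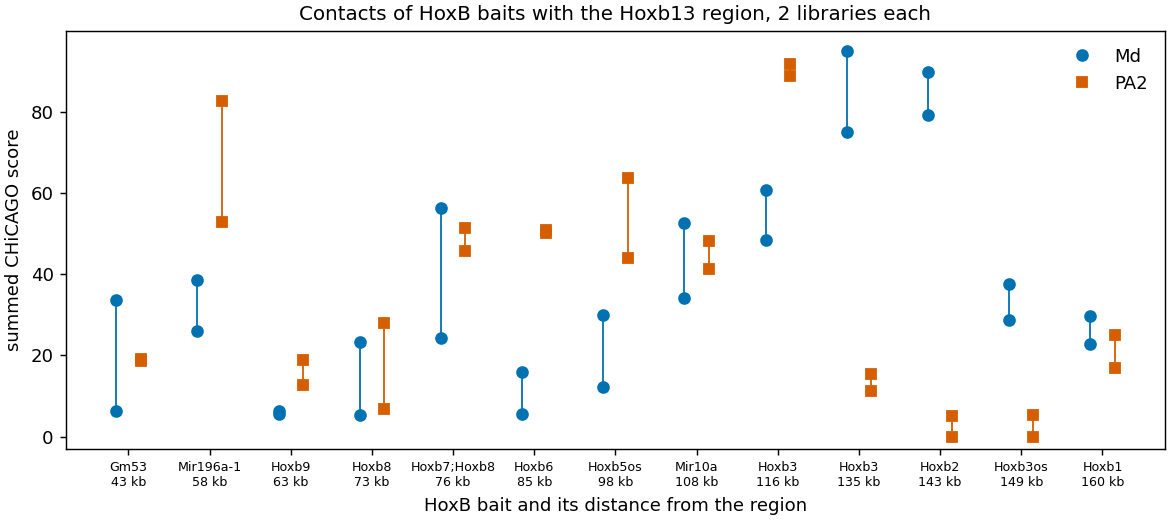
Summed CHiCAGO score of each *HoxB* bait with the region of *Hoxb13* at chr11, by bait in order of distance, with both Md libraries in blue and both PA2 libraries in orange joined by a line. *Hoxb2*, *Hoxb3os* and the *Hoxb3* bait next to *Hoxb2* lie higher in Md, *Hoxb6* and the second *Hoxb3* bait higher in PA2, and *Hoxb1* overlaps.

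In the *HoxA* cluster, *Hoxa4* and *Hoxa5* had few side-specific pairs, 2 PA2-only and 0, although their summed scores differed by -0.97 (SE 0.285) and -0.78 (SE 0.244) between Md and PA2 on the log2 scale. These differences are those of the fit over baits, in which log2 of the summed score of a bait plus 5 was centred per library and tested with limma. Negative values are higher in PA2. On this scale *Hoxb2* differed by 1.66 (SE 0.319), the *Hoxb3* baits by 1.42 (SE 0.306) and -1.61 (SE 0.349), and *Hoxb6* by -1.56 (SE 0.405), each from 2 libraries a side. None of the 20833 baits tested, or 0%, reached an adjusted p of 0.05 in limma. At an unadjusted p under 0.05, 990 baits were higher in Md, or 4.75%, and 733 in PA2, or 3.52%. The adjusted p was 0.323 for *Hoxb2* and 0.381 for both *Hoxb3* baits (limma). These genes were chosen for their side-specific pairs, so their differences are a description. Over the 37 baits of *Hox* genes other than *Hoxa2*, 2 were higher in Md and 10 in PA2 at the unadjusted level, and the median difference was -0.49, against 0.00 over all baits. Neighbouring baits of a cluster are not independent of each other, so these counts are a description too.

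Among the cofactors that bind DNA with Hox proteins, *Meis1* stood out. Its bait at chr11:19011027-19015228 had 6 Md-only pairs and 1 PA2-only pair, and 5 adjacent fragments at chr11:18869090-18886544, within and beyond the 3′ part of *Meis1* and in *8430419K02Rik*, were listed in both Md libraries. Their scores summed to 37.7 and 38.1 in Md, 39.6 and 42.4 in FNP, 52.4 and 60.9 in Mx, and 0 in all 4 PA2 libraries, wild-type and knockout. E12.5 pinna gave 46.2 and 67.6 and E14.5 pinna 31.5 and 51.9. The contact of this bait was thus missing from the lists of E10.5 PA2 and present in those of both later stages. The bait of a second *Meis1* start site, at chr11:19017037-19021316, gave 25.3 and 22.2 in Md and 0 and 5.1 in PA2 with the same region, and 0 and 16.3 in the knockout, which listed it in replicate 2. The fragment at chr11:18873311-18873583, in an intron of *8430419K02Rik*, is shown because both *Meis1* baits met it in both Md libraries and neither did in wild-type PA2. With the first bait it scored 7.83 and 8.98 in Md.
Meis1 fragment: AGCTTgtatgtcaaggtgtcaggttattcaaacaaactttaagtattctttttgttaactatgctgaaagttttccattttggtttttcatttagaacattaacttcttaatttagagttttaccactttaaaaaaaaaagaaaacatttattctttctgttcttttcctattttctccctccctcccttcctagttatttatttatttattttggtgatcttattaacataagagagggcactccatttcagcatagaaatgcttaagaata
Capitals mark the bases left by the HindIII cut. Neither TGATNNAT, a Hox-Pbx motif, nor TGACAG, a Meis motif, was found in this plus-strand sequence on either strand. Of HindIII fragments of similar length on chromosomes 2, 6 and 11, 16.2% and 19.2% hold them. Over all pairs the *Meis1* bait did not separate the populations, with 10 and 20 pairs in Md and 11 and 8 in PA2 and a log2 difference of 0.32 (SE 0.360). Of the 11 baits of cofactor genes, 0 passed the unadjusted level in either direction.

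*Dlx* genes encode homeodomain factors of dorsoventral arch identity, and the neighbours *Dlx1* and *Dlx2* were listed more often in PA2. *Dlx1* (bait at chr2:71521822-71529796) was listed in 9 and 19 pairs in Md and 33 and 38 in PA2. *Dlx2* (bait at chr2:71536367-71550155) was listed in 13 and 21 pairs in Md and 49 and 38 in PA2. *Dlx1* had 0 Md-only and 8 PA2-only pairs, and *Dlx2* had 0 and 16. In the *Hoxa2* knockout PA2 the counts were 51 and 39 for *Dlx1* and 45 and 59 for *Dlx2*, and in FNP, Mx and both pinna stages they lay between 9 and 25. High counts were thus found in PA2 of E10.5 with and without *Hoxa2*. Of the PA2-only pairs of *Dlx2*, 9 formed a run at chr2:71210609-71262894 on *Dync1i2*, a dynein subunit gene 273.5 kb away. The summed score of *Dlx2* with it was 48.6 and 69 in Md, 135.6 and 130.8 in PA2 and 77.9 and 102.2 in the knockout. It was 61.4 and 80.1 in Mx and 76.8 and 64.0 in E14.5 pinna, so the knockout overlapped Mx. The Md libraries therefore listed the contact too, at a lower sum. For *Dlx1*, the run at chr2:71217856-71325642, on *Dync1i2* and *Slc25a12*, summed to 40.6 and 83.6 in Md, 164.0 and 183.0 in PA2 and 241.2 and 206.1 in the knockout.

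The shortest fragment of the *Dlx2* run, at chr2:71236910-71237127 in an intron of *Dync1i2* (plus strand), scored 7.40 and 6.05 in PA2 and was listed with *Dlx2* in 1 other library, E12.5 pinna replicate 1.
Dlx2 fragment: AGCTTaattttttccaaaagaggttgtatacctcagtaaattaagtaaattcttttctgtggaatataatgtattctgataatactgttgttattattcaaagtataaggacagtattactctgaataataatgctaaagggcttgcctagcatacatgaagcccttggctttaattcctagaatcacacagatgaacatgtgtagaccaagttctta
Capitals have the same meaning. It holds neither TGATNNAT nor TGACAG on either strand, which occur in 10.9% and 13.3% of fragments of similar length. On the log2 scale the bait differences were -1.84 (SE 0.346) for *Dlx1* and -1.62 (SE 0.350) for *Dlx2*, with adjusted p of 0.323 and 0.381 (limma). With a single Md library left, the difference of *Dlx1* was -2.31 without Md replicate 2 and -1.36 without Md replicate 1. *Dlx4*, which forms another pair with *Dlx3* on chromosome 11, differed by -0.94 (SE 0.399), and *Dlx5* by -0.31 (SE 0.238). At the unadjusted level 4 of the 5 *Dlx* baits were higher in PA2, against 3.52% of all baits. The runs of the neighbours *Dlx1* and *Dlx2* overlap, and both genes were chosen for their side-specific pairs. The baits are thus not independent, and this count is a description. Together the 5 baits had 3 Md-only and 30 PA2-only pairs, most of them of *Dlx1* and *Dlx2*, and *Dlx5* had 3 of each.

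**Figure D3:**
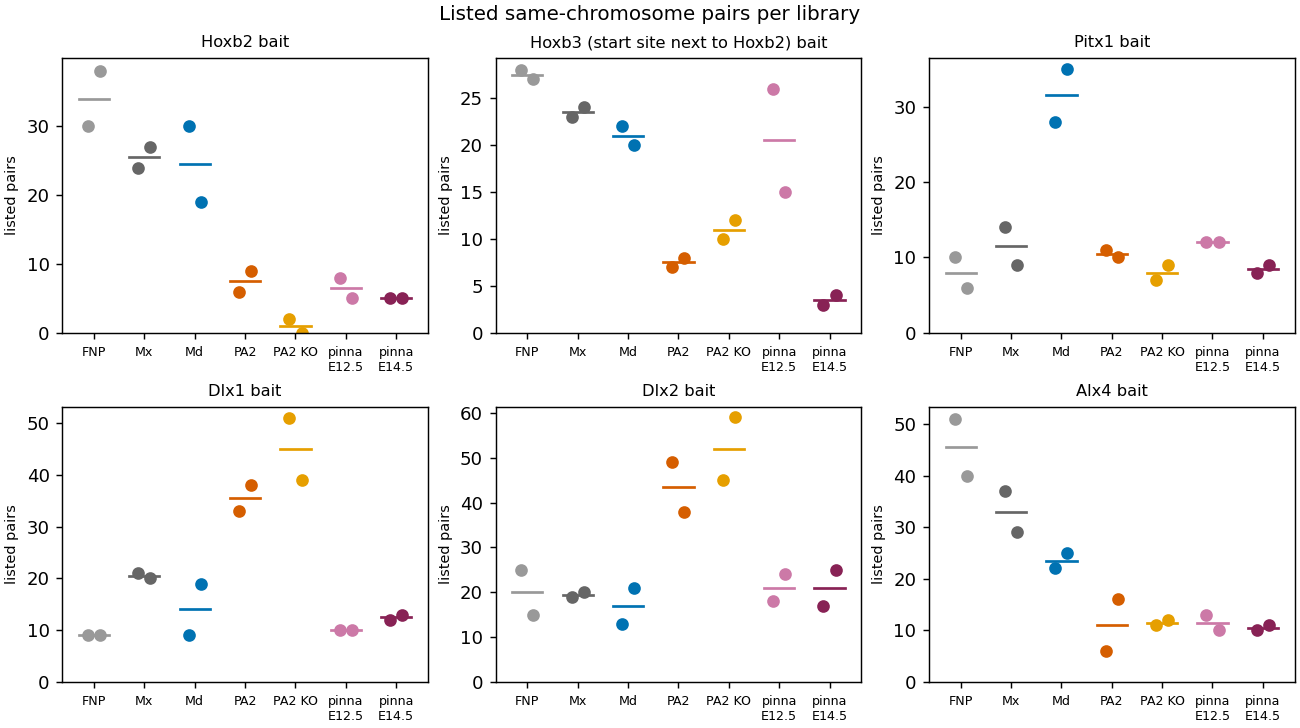
Number of listed same-chromosome pairs of 6 baits in each of the 14 libraries, with the 2 replicates of a population as points and their mean as a line. *Hoxb2* and *Alx4* run from high in FNP to low in PA2 and its derivatives, *Pitx1* is highest in Md, and *Dlx1* and *Dlx2* are highest in wild-type and knockout PA2.

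*Pitx1*, a homeobox gene of the mandible and hindlimb, was listed most often in Md of the 7 populations. Its bait at chr13:55825328-55839562 was listed in 28 and 35 pairs in Md. The other 12 libraries listed between 6 and 14 pairs, with 11 and 10 in PA2, 10 and 6 in FNP and 14 and 9 in Mx. It had 11 Md-only pairs and 1 PA2-only pair. Most lay at chr13:55915423-56247736, a span with *H2afy*, which encodes a histone variant, and *Tifab*. The scores of *Pitx1* with this span summed to 201.8 and 203.9 in Md and 67.0 and 46.4 in PA2, and in the other 10 libraries they ran from 36.1 to 89.3. The same contacts were thus listed in other populations with fewer fragments, 9 and 8 in PA2 against 24 and 28 in Md. On the log2 scale the bait differed by 1.35 (SE 0.391, adjusted p = 0.544, limma).

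*Alx* genes are homeobox genes best known from frontonasal mesenchyme. *Alx4* (bait at chr2:93637427-93643377) was listed in 22 and 25 pairs in Md and 6 and 16 in PA2, and had 7 Md-only and 0 PA2-only pairs. In FNP it was listed in 51 and 40 pairs and in Mx in 37 and 29, so that Md lay between these and PA2. *Alx1* (bait at chr10:103026355-103030016) was listed in 8 and 12 pairs in Md and 2 and 3 in PA2, and in 19 and 27 in FNP. The log2 differences were 0.87 (SE 0.380) for *Alx4* and 1.41 (SE 0.379) for *Alx1*. That of *Alx4* ran from 0.23, with PA2 replicate 1 left out, to 1.51, with PA2 replicate 2 left out.

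*Six2*, a homeobox gene known as a target repressed by *Hoxa2* in PA2, had 0 Md-only and 6 PA2-only pairs. Its bait (chr17:85685886-85698371) met fragments at chr17:85458325-85484908, 201 kb away on and beside *Camkmt*, in 1 fragment in Md replicate 1, in 0 in Md replicate 2 and in 7 in both PA2 libraries. The summed scores were 5.2 and 0 in Md, 52.1 and 46.6 in PA2, 23.5 and 22.8 in the knockout, 42.6 and 17.2 in E12.5 pinna, and 0 in FNP, Mx and E14.5 pinna. The neighbouring *Six3* bait met the same region in both populations, with sums of 60.1 and 64.4 in Md and 107.9 and 97.8 in PA2. Over all its pairs *Six2* was listed 29 and 21 times in Md and 32 and 35 times in PA2, close together but not overlapping, with a log2 difference of -0.69 (SE 0.279, adjusted p = 0.581, limma). The RefSeq promoter window of *Six2*, at chr17:85688205-85688504 of GRCm38.p6, is given on the minus strand because it lies in the bait that makes these contacts.
Six2 promoter: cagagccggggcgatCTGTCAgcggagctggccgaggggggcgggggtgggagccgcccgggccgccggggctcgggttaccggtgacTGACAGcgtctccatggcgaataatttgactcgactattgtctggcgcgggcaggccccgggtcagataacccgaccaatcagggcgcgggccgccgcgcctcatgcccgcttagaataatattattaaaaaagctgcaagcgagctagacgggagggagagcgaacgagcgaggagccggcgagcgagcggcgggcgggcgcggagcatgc
Capitals mark the 2 matches of the Meis motif TGACAG or its reverse complement. Of 32851 promoter windows of this length, 19.2% hold at least 1 match on either strand. TGATNNAT has 0 matches here and occurs in 8.85% of the windows.

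*Lhx5*, a LIM homeobox gene, met *Tbx3*, a T-box gene, more often in PA2. The fragments at chr5:119655954-119679983, over *Tbx3* and *Tbx3os1* and 751.3 kb from the *Lhx5* bait, had summed scores of 15.5 and 13.6 in Md, 79.3 and 96.6 in PA2, 37.8 and 36.2 in the knockout and 32.0 and 39.4 in E12.5 pinna. They were 5.5 and 6.7 in FNP and 0 in Mx and E14.5 pinna. Over all its pairs the *Lhx5* bait overlapped, with 23 and 34 in Md and 28 and 27 in PA2. *Lhx5* had 5 PA2-only pairs, all in this run, and 2 Md-only pairs nearer the bait.

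**Figure D4:**
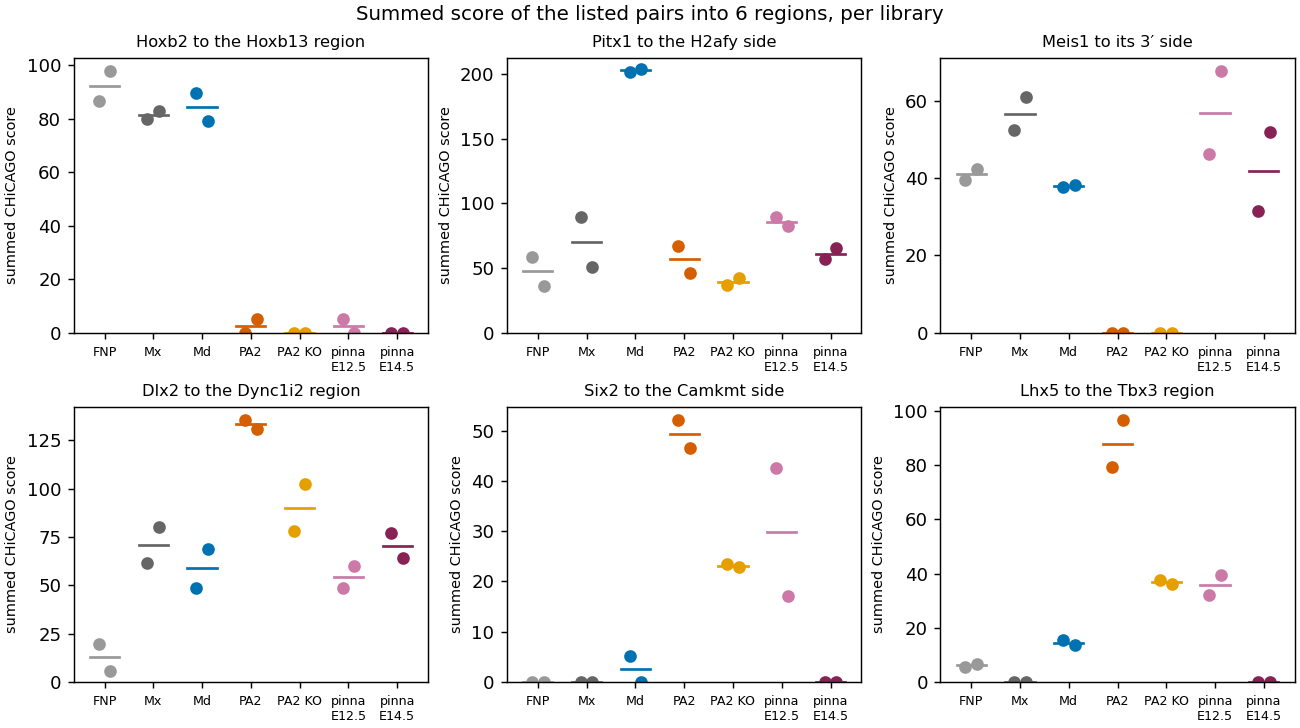
Summed CHiCAGO score of 6 baits with the regions described in the text, in each of the 14 libraries, with replicates as points and their mean as a line. The *Hoxb2* contact is confined to FNP, Mx and Md apart from single fragments, the *Meis1* contact is at 0 in wild-type and knockout PA2 only, and *Six2* and *Lhx5* peak in wild-type PA2.

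*Hand2*, a factor of the ventral arch, was listed more often in Md and PA2 than in FNP. Its bait at chr8:57318613-57347153 was listed in 67 and 72 pairs in Md and 58 and 64 in PA2, against 36 and 30 in FNP. Mx listed 40 pairs in each library, knockout PA2 47 and 50, and E12.5 pinna 36 and 44. E14.5 pinna listed 62 and 58 and so overlapped PA2. The *Hand2* bait had 9 Md-only pairs, spread over chr8:56537821-56875502 on the side of *Cep44* and *Fbxo8*, and 1 PA2-only pair elsewhere. The log2 difference was 0.00 (SE 0.238) after centring and 0.29 without it. The 11 baits of the endothelin pathway and ventral arch list had 28 Md-only and 15 PA2-only pairs, a median difference of 0.29, and 0 baits past the unadjusted level. The median was 0.02 without Md replicate 2 and 0.05 without PA2 replicate 1. *Edn1*, the ligand, had 3 and 1 such pairs, and *Ednra*, its receptor, 1 and 0.

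The remaining gene lists gave the setting for these loci. Over all baits there were 10410 Md-only and 8461 PA2-only pairs, an order that reversed with equal numbers of pairs per library. At the unadjusted level 4.75% of the baits tested were higher in Md and 3.52% in PA2. Facial mesenchyme transcription factors (35 baits) had 90 Md-only and 48 PA2-only pairs and a median difference of -0.20, and 3 baits were higher on each side at the unadjusted level. Genes studied downstream of *Hoxa2* (14 baits, some shared with the former list) had 32 and 19, with 2 baits higher in Md and 3 in PA2. Signalling genes (44 baits, 41 tested) had 46 and 39, with 1 and 5, the latter including the Hedgehog effector *Gli2* at -1.83 (SE 0.632) and the BMP ligand *Bmp5* at -0.68 (SE 0.292). Cartilage and bone genes had 18 and 8 pairs, and 1 of 12 baits, that of *Runx2*, was past the unadjusted level, or 8.33% against 8.27% of all baits. Early crest, glia, pigment and neuron genes had 9 and 6. Markers of other cells that a sort could carry had 1 Md-only and 7 PA2-only for muscle, 8 and 4 for endothelium and blood, and 2 and 3 for epithelium. *Cdh1*, the epithelial cadherin, had 0 of either. Medians of all lists but the cofactor and endothelin lists were below 0. Without Md replicate 2 that of the cofactors was -0.06, without Md replicate 1 that of genes downstream of *Hoxa2* was 0.11, and without PA2 replicate 2 that of endothelium and blood was 0.02. Without centring, the median over all baits was 0.29 higher in Md, and those of facial factors (0.09), signalling (0.05), endothelium and blood (0.20) and epithelium (0.02) turned positive, while *Hox* (-0.20) and *Dlx* (-0.71) stayed negative.

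**Figure D5:**
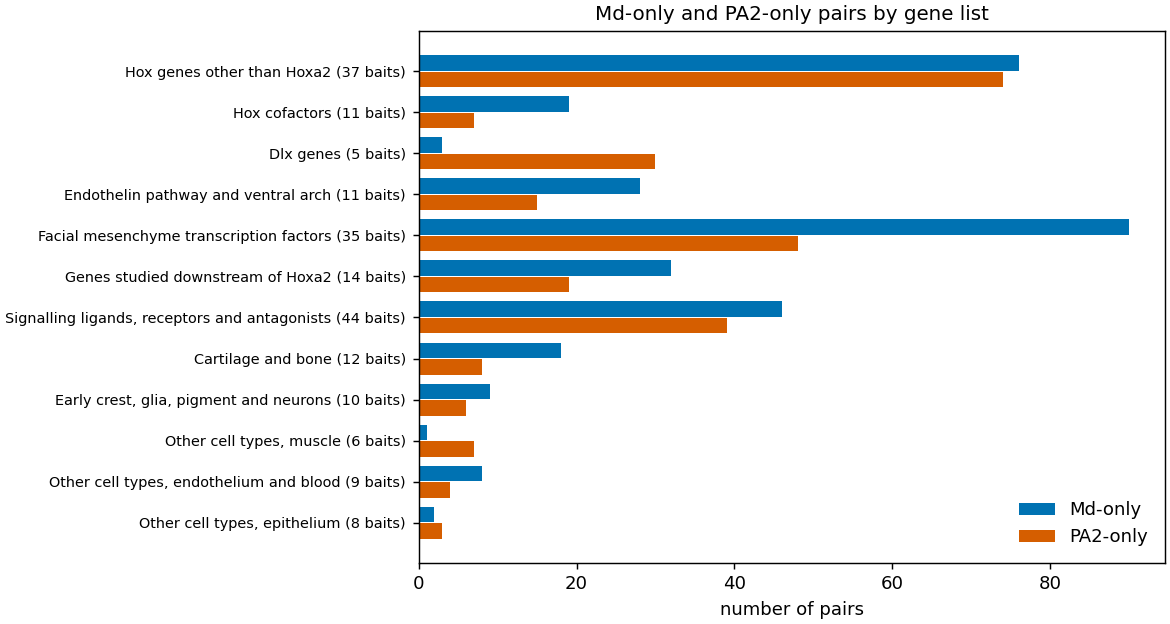
Number of Md-only (blue) and PA2-only (orange) pairs summed over the baits of each of the 12 gene lists, with the number of baits in brackets. *Dlx* genes had 3 against 30, facial mesenchyme factors 90 against 48, and *Hox* genes other than *Hoxa2* 76 against 74.

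Beyond the lists, the most Md-only pairs were those of *Hjurp;Trpm8*, a bait at chr1:88276241-88278577 that holds start sites of a centromere chaperone gene and an ion channel gene. It had 55 Md-only and 3 PA2-only pairs, with 215 and 321 listed pairs in Md and 119 and 126 in PA2, and its longest Md-only run lay far away at chr1:3617166-3683060. FNP and Mx listed 135 to 309 pairs of this bait, knockout PA2 124 and 173, and pinna 67 to 187. *Zik1*, a zinc finger gene, had 40 Md-only and 8 PA2-only pairs. *Mpped2*, a metallophosphoesterase gene with contacts 218.5 kb away, had 11 Md-only and 0 PA2-only pairs. It was listed 27 and 29 times in Md and 10 and 11 times in PA2, with a difference of 1.25 (SE 0.297). FNP and Mx listed it 26 to 40 times, knockout PA2 18 and 15 times, and pinna 15 to 30 times. *Gfra1*, a receptor of glial cell line-derived neurotrophic factor, had 0 Md-only and 9 PA2-only pairs. It was listed 16 and 21 times in Md and 49 and 39 times in PA2, and differed by -1.70 (SE 0.307, adjusted p = 0.273, limma). FNP and Mx listed it 24 to 39 times, knockout PA2 26 and 28 times, and pinna 35 to 52 times. Both Md libraries thus lay below all others.

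Single pairs were also tested, on asinh of the score over the 8 wild-type E10.5 libraries. In limma 3752 pairs were higher in Md, 2.89% of 129746, and 3021 in PA2, or 2.33%, at an adjusted p under 0.05. These include 10 and 30 pairs of the *Hoxa2* bait. Of the called pairs, 3733 and 3002 were Md-only and PA2-only pairs, which had entered the test only through the side that listed them and therefore had to differ. When a pair had to be listed in at least 3 of the 4 libraries, the count was 0 in both directions. It was also 0 with pairs listed in at least 4 of the 8 libraries, where 6215 of 104587 pairs had an unadjusted p under 0.05, so no single pair is reported here as changed.

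The libraries outside the comparison offered the same measure in samples that the choice of side-specific pairs had not used. They were compared as FNP and Mx (4 libraries) against PA2-derived libraries, the knockout and pinna (6 libraries). Among the baits named below, *Alx1*, *Pax9*, *Bmp4* and *Twist2* were chosen after their values were seen. Stage and population cannot be told apart for the pinna. A pair had to be listed in at least 2 of the 10 libraries, so pairs here too could enter through the side that listed them, and the calls on pairs are a description. In the fit over pairs, 13739 of 248841 pairs were higher in FNP and Mx, or 5.52%, and 19454 in the PA2-derived libraries, or 7.82%. Of the 7464 Md-only pairs that could be tested, 485 were higher in FNP and Mx (6.50%) and 248 in the PA2-derived libraries (3.32%). Of the 6088 PA2-only pairs tested, 295 (4.85%) and 327 (5.37%) were. Against the knockout alone, 4.78% of Md-only and 4.25% of PA2-only pairs were higher in FNP and Mx, against 4.75% of all pairs, and 1.80% and 2.83% were higher in the knockout, against 4.38%. Against pinna alone, 4.76% and 4.19% were higher in FNP and Mx, against 4.14%, and 2.52% and 3.78% were higher in pinna, against 4.30%. FNP and Mx libraries listed 33.6% to 39.7% of Md-only and 33.2% to 35.5% of PA2-only pairs, and knockout PA2 listed 23.1% and 25.1% of Md-only and 24.6% and 25.8% of PA2-only pairs. The knockout lists, the shortest of the series, also held fewer of the pairs listed in all 4 Md and PA2 libraries. Their shares of these were 70.2% and 73.3%, against 86.2% to 89.7% in FNP and Mx. The pinna libraries listed 27.7% to 38.4% of Md-only and 28.4% to 37.4% of PA2-only pairs. Pairs listed in 1 Md and 1 PA2 library had like shares, 33.4% to 38.6% in FNP and Mx.

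At the level of baits, 127 of 21989 were higher in FNP and Mx, or 0.578%, and 161 in the PA2-derived libraries, or 0.732% (limma, adjusted p under 0.05). With single libraries left out these counts ran from 28 to 236 and from 23 to 280, and this fit over baits was added after the values were seen. *Hoxb2* was among the former, with a log2 difference of 3.14 (SE 0.455, adjusted p = 0.00152). *Alx4* differed by 1.83 (SE 0.277, adjusted p = 0.00203) and *Alx1* by 1.66 (SE 0.386, adjusted p = 0.0328). *Pax9*, *Bmp4* and the bait of *Hoxc10* and *Hoxc5* were called in the same direction, with 0.94, 1.75 and 1.56 and adjusted p of 0.0190, 0.0355 and 0.0235. Their differences between Md and PA2 were -0.08, 0.24 and -0.58, so those of *Pax9* and of *Hoxc10* and *Hoxc5* had the opposite sign. That of *Hoxc10* and *Hoxc5* ran from -1.08 without Md replicate 2 to -0.07 without Md replicate 1. Of these 6, *Hoxb2* and *Alx4* kept the call when each of the 10 libraries was left out in turn, with adjusted p of 0.000232 to 0.0173 and 0.000697 to 0.0173. The others lost it without at least 1 library. *Twist2*, a basic helix-loop-helix factor of mesenchyme, was the 1 listed bait called higher in the PA2-derived libraries (-3.30, SE 0.451, adjusted p = 0.00109). It was listed 34 and 45 times in E12.5 pinna and 36 and 41 times in E14.5 pinna but only 7 and 10 times in the knockout, 10 and 6 times in PA2 and 3 and 5 times in Md. Against the knockout alone its adjusted p was 0.0794.

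*Pitx1* was not called between these outside groups (-0.05, SE 0.324, adjusted p = 0.962). *Dlx1* and *Dlx2* differed by -0.57 (SE 0.478) and -0.58 (SE 0.358) against all 6 PA2-derived libraries, with adjusted p of 0.616 and 0.463. Against the knockout PA2 of the same stage the differences were -2.21 (SE 0.332, adjusted p = 0.00331) and -1.76 (SE 0.244, adjusted p = 0.00174), higher in knockout PA2 in both of its libraries than in all 4 of FNP and Mx. This stage-matched setting was also a late addition. *Hoxb2* and *Alx4* differed from the knockout by 4.28 (SE 0.425, adjusted p = 0.000142) and 1.51 (SE 0.279, adjusted p = 0.014) in the same setting.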

How the data were processed

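The authors used HiCUP for mapping to GRCm38/mm10 and CHiCAGO for scoring, and the deposited file of each library lists fragment pairs with their CHiCAGO score. The submitters' processing notes also name bcl2fastq 2.17. The lists hold no read counts, so depth is unknown and no counting interval can be given. The number of listed pairs stands in for it. The p-values measure the spread between 2 replicates per population, which the study gives as biologically independent. Md replicate 1 and E12.5 pinna replicate 2 are named as merged, and what was merged is not stated. With 2 libraries against 2, the smallest two-sided exact permutation p is 1 in 3, so no such p is given.

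From these lists, same-chromosome pairs were joined over the 14 libraries, an unlisted pair was set to 0, and baits were named by the mm10 start sites they hold. Pairs listed in at least 2 of the 4 Md and PA2 libraries were tested on asinh(score), and baits on log2(summed score + 5), centred on the library median, with limma 3.58.1 in R 4.3.3 (4 group means over the 8 wild-type E10.5 libraries, eBayes with trend, Benjamini-Hochberg over all features, threshold 0.05). In the 10 other libraries, pairs were fitted with 5 group means, and baits with 2 groups, FNP and Mx against the knockout and pinna, so the p-values of the latter measure the spread between populations too. The named genes were the 12 baits and 10 runs of fragments with the most side-specific pairs on each side and, in each of 12 gene lists, the 3 members with the most such pairs. Other members were named after their values were seen. The members and lists were chosen with earlier results of these data known. The alternatives were other score thresholds, scales, filters, sample sets, centring, equal numbers of pairs per library, a replicate block, and each library left out. Pairs between chromosomes were counted only. Python 3.11.15, pandas 2.3.3, NumPy 2.4.6 and matplotlib 3.10.9 were used. The values of some genes are not reported here.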

Additional observations from a re-analysis of the deposited data

Results flagged for a closer look

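Pairs between chromosomes entered no comparison. In Md replicate 1 they made up 46.5% of all listed pairs, against 3.04% to 3.60% in the other 3 Md and PA2 libraries. Its file name says that it was merged, as does that of E12.5 pinna replicate 2, at 62.7%. The part of this difference in the Md values was not tested.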

How the results depend on the processing

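Calls on single pairs depended on the filter. Pairs higher in Md and in PA2, 3752 and 3021, became 7728 and 7245 with the Md and PA2 libraries only and 2239 and 1726 with all 14 libraries as 7 group means. They became 0 and 0 when listed in at least 3 of 4, in at least 1 of 4 or in at least 4 of 8 libraries, and 0 and 0 in 100 kb windows per bait, where 3471 of 46853 windows had an unadjusted p under 0.05. The last 2 settings were chosen after seeing the data. With equal numbers of pairs per library, 2428 were higher in Md and 3871 in PA2, the reverse order. Leaving out single libraries gave 10 to 6480 in Md and 8 to 6851 in PA2, with 10 pairs higher in Md without Md replicate 1, 14 without Md replicate 2, and 10 and 8 higher in PA2 without PA2 replicates 1 and 2. Md-only pairs, 10396, became 231 at scores of 10 or more, 6705 with equal numbers, and 18374 to 96359 with single libraries left out, where fewer libraries had to list or lack a pair. PA2-only pairs, 8432, became 31, 11228 and 13549 to 59612, so with equal numbers PA2 had more than Md. For baits, 0 higher in Md became 0 to 2 (1 without Md replicate 2, 2 without PA2 replicate 1), and 0 higher in PA2 became 0 to 10 (10 without Md replicate 2).

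In the outside libraries, the 127 baits higher in FNP and Mx became 395 against the knockout alone, 605 against pinna, 533 with 5 group means and 28 to 236 with libraries left out. The 161 higher in PA2-derived libraries became 765 against pinna, 510 with 5 group means and 23 to 280. The Md-only and PA2-only pairs higher in PA2-derived libraries fell from 248 to 134 and from 327 to 172 against the knockout alone. *Dlx1* and *Dlx2* turned to 0.24 and 0.004 against pinna alone (adjusted p 0.736 and 0.996, limma). Of the alternatives for named baits in the outside libraries, 94 kept direction and side of the threshold, 19 lost the call, 2 gained it and 2 reversed direction. For Md against PA2, 155 alternatives kept both and 4 reversed direction. No bait was called there in the main fit, so keeping the side of the threshold says little. *Hand2* turned to -0.18 by number of listed pairs, and with libraries left out it ran from -0.16 without Md replicate 2, through -0.05 without PA2 replicate 1, to 0.16 without Md replicate 1. *Meis1* ran from -0.15 without Md replicate 2 to 0.79 without Md replicate 1. Same-numbered Md and PA2 libraries share only a number (correlation 0.0431). With a replicate block 3385 and 2742 pairs and 0 and 0 baits were called. The cause was not tested.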

Other observations

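Other baits with many side-specific pairs lay outside the gene lists. *Saysd1*, on chromosome 14, had 16 Md-only pairs and 1 PA2-only pair. It was listed in 83 and 86 pairs in Md and 42 and 53 in PA2, and in the other 10 libraries between 24 and 65 times, so both Md libraries lay above all others. *Calml3*, a calmodulin-like gene on chromosome 13, had 0 Md-only and 11 PA2-only pairs. It was listed 14 and 15 times in Md, 36 and 23 times in PA2, 10 and 14 times in FNP, 30 times in each Mx library, 22 and 24 times in the knockout, and 46 times in each E14.5 pinna library, the highest of the series. *Tcf12*, which encodes a basic helix-loop-helix partner of Twist factors, had 0 and 9 such pairs. It was listed 11 and 37 times in Md and 35 and 43 times in PA2, so the populations overlapped, while both knockout libraries listed it 10 times and the 4 pinna libraries between 53 and 63 times.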
